A study of Mus musculus with 8 samples.

Results

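The mitochondrial genome transcripts of mouse kidney were compared between animals given bisphenol A (BPA) and animals given vehicle. Members were all rows of the deposited expression table whose gene name begins with mt-. There were 37 of them among 54532 genes: 13 mRNAs, 2 ribosomal RNAs and 22 transfer RNAs. Kidney RNA carrying poly(A) tails was sequenced from the ICR stock given in the library names, with 4 libraries from the BPA group and 4 from the vehicle group, numbered as replicates 1 to 4 in each. Dose, route, duration, age and genotype are not given in the labels. Whether each library is a different animal is not stated there either, so the p-values cover the spread among these 8 samples, part or all of which may be technical. BPA is a monomer of polycarbonate plastics that binds estrogen receptors weakly.

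Mitochondria keep a small circular genome. The nuclear-encoded polymerase Polrmt, with the factors Tfam and Tfb2m, transcribes both of its strands as long precursors, in which tRNAs punctuate the mRNAs and rRNAs. Cutting at the tRNAs releases most of the mRNAs, and the polymerase Mtpap gives most mRNAs short poly(A) tails. The mRNAs encode core subunits of respiratory complexes I, III and IV and of the ATP synthase (complex V), while the rRNAs and tRNAs serve the mitochondrial ribosome. Kidney tubules, above all the proximal tubule, are rich in mitochondria because they drive ion and solute transport with ATP.

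Tails also complete some reading frames. In 3 of the 13 mRNAs, mt-Co3, mt-Nd4 and mt-Cytb, the annotated gene ends on a lone T, and added A residues make the stop codon. The other annotated genes, such as mt-Nd1 and mt-Co1, carry a whole stop. The last 2 bases of mt-Nd1 are shared with the tRNA gene mt-Ti on the same strand, and mt-Nd2 shares 2 with mt-Tw. After a cut at the tRNA, the mRNA can thus end before the annotated stop is complete. The last 30 bases of these annotated genes are shown because an RNA library chosen by its tails starts at or near these ends. The capitals mark the stop or its first letter (5′ to 3′, sense strand, GENCODE release M21 on GRCm38).

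mt-Nd1: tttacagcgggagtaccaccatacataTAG
mt-Co1: gaggaaccaacctatgtaaaagtaaaaTAA
mt-Co3: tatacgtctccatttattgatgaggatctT
mt-Nd4: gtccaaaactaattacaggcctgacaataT
mt-Cytb: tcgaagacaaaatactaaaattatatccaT

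Genes on opposite strands can share bases. The ends of mt-Nd5 (plus strand, MT 11742 to 13565) and mt-Nd6 (minus strand, MT 13552 to 14070) overlap by 14 bases. Capitals mark those bases in the last 30 of each gene.

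mt-Nd5: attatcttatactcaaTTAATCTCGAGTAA
mt-Nd6: tttattattatcgagaTTACTCGAGATTAA

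Among the tRNAs, 6 carry most of what is described below. They are printed whole with the anticodon in capitals, because neighbours in the genome differed in their levels and in their difference between the groups. They read the codons of tryptophan (mt-Tw), asparagine (mt-Tn), cysteine (mt-Tc), tyrosine (mt-Ty), glutamate (mt-Te) and proline (mt-Tp).

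mt-Tw: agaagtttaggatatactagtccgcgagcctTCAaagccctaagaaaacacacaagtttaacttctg
mt-Tn: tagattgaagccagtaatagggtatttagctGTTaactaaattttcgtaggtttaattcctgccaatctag
mt-Tc: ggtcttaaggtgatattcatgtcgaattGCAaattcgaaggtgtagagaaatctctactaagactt
mt-Ty: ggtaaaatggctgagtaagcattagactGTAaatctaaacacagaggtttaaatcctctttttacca
mt-Te: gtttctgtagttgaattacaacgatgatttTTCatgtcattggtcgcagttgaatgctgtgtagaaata
mt-Tp: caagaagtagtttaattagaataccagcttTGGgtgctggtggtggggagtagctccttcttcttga

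Only mt-Tw of these lies on the plus strand (MT 4950 to 5016). On the minus strand follow mt-Tn (5089 to 5159), mt-Tc (5192 to 5257) and mt-Ty (5260 to 5326), and farther on mt-Te (14071 to 14139) and mt-Tp (15356 to 15422). The 32 bases between mt-Tn and mt-Tc hold the origin of light-strand replication.

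Library facts bear on all that follows. Whole reads recovered from the deposited FPKM (fragments per kilobase of gene, scaled by library size) came to 15944081 to 17351540 per library. The tissue label was checked on its markers: all 10 proximal tubule genes checked were measured, and their summed FPKM was 48704 to 65752 in 7 libraries. BPA replicate 4 stood apart, with 32980 FPKM for those markers and 17174 genes above 0 against 19090 to 20845 elsewhere. Such a sum rests mostly on its highest genes. The median log2 difference of the 10 markers, BPA minus vehicle, was -0.11 with that library and -0.14 without it. Vehicle replicate 4 held skeletal muscle markers at a summed 241.5 FPKM, against 1.38 or less in the other libraries, and fat markers at 278 FPKM. Vehicle replicate 2 held fat markers at 92.2 FPKM. Podocyte, endothelial and stromal, collecting duct and distal tubule markers overlapped between the groups, as did immune and blood markers. The part of any of these in the results was not tested. In bulk tissue, fewer cells of a type and less RNA per cell cannot be told apart.

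Reads from the mitochondrial genome were a larger share of every BPA library than of any vehicle library. They made up 7.02%, 8.33%, 7.11% and 7.19% of reads in vehicle replicates 1 to 4 and 9.85%, 9.81%, 9.66% and 14.2% in BPA replicates 1 to 4. The 95% Wilson interval of each share reached at most 0.0166 percentage points to either side and covers counting error only, so the distance between libraries is far larger than counting error. The difference of the group means was 3.46 percentage points, and 2.29 without both replicates 4. Nearly all of these reads came from mRNAs, which made up 98.3 ± 0.477% of the mitochondrial total in the vehicle group and 98.1 ± 1.15% in the BPA group (mean ± SD, n = 4). The rRNAs took 1.52 ± 0.463% and 1.64 ± 1.12%, and the tRNAs 0.167 ± 0.0229% and 0.219 ± 0.0328%.

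By complex, the 7 complex I mRNAs differed most. They held 2.91%, 3.41%, 2.67% and 3.03% of all reads in the vehicle libraries and 4.28%, 4.19%, 4.10% and 6.88% in the BPA libraries, with no overlap. Complex I also took a larger part within the mitochondrial reads, 40.5 ± 2.04% in vehicle and 44.3 ± 2.88% in BPA, again with no overlap (37.5 to 42.2% against 42.5 to 48.6%). That part does not depend on how libraries are scaled against each other. The 3 complex IV mRNAs held 2.75 ± 0.241% of all reads in vehicle and 3.83 ± 0.862% in BPA without overlap, but their part of mitochondrial reads overlapped (37.1 ± 1.88% and 35.1 ± 1.60%). Complex III, whose only member here is mt-Cytb, was at 1.52 ± 0.142% and 1.93 ± 0.241% of all reads, with overlap, since BPA replicate 4 was at 1.64% and vehicle replicate 2 at 1.73%. Complex V was the smallest, at 0.0186 ± 0.00553% and 0.0238 ± 0.00652%, with overlap. A stretch copied in the nucleus, described below, holds mt-Atp6 and mt-Atp8 of complex V and mt-Co2 and mt-Co3 of complex IV. It also holds mt-Nd3 and mt-Nd4l of complex I and parts of mt-Co1 and mt-Nd4. The shares of complexes I, IV and V and their order thus depend on how reads with several matches were assigned, which is not given.

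**Figure D1:**
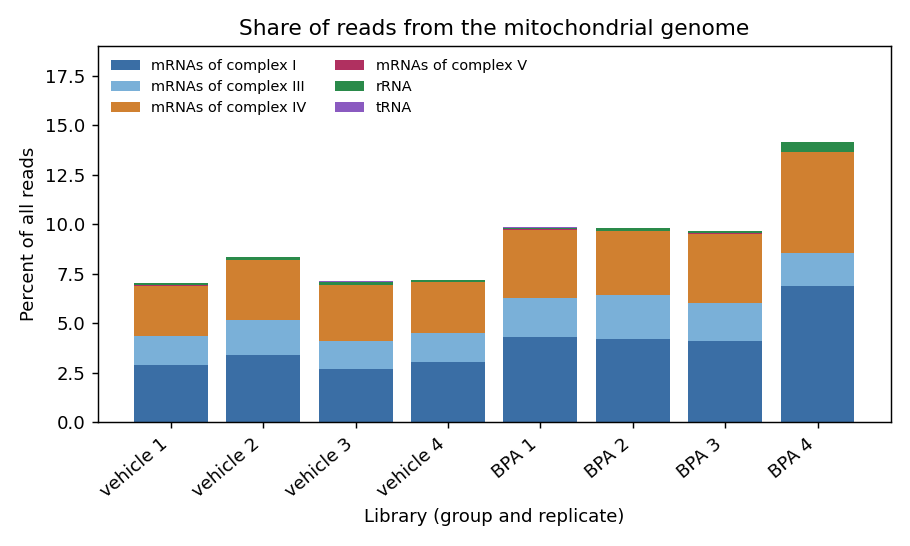
Percent of all reads (y axis) that came from the mitochondrial genome in each of the 8 libraries (x axis), stacked by the complex the mRNAs belong to and by rRNA and tRNA. The 4 vehicle bars end between 7.02% and 8.33%, BPA replicates 1 to 3 end between 9.66% and 9.85%, and BPA replicate 4 reaches 14.2%, with its larger complex I block of 6.88% and a visible rRNA block.

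The comparison of single genes asked which members differed between BPA and vehicle. It used limma on log2(FPKM + 1) over the 13376 genes with a mean of at least 0.5 FPKM, with Benjamini-Hochberg adjustment over all of them. Of the members 31 reached that level: all 13 mRNAs, both rRNAs and 16 tRNAs. None of the 31 passed limma's test at an adjusted p of 0.05, where 0.00748% of all tested genes did, namely the pseudogene Gm8430 alone (log2 difference -1.13, adjusted p = 0.00745). At an unadjusted p under 0.05 there were 16 members higher and 1 lower in BPA, and of all tested genes 4.18% were higher and 6.83% lower at that level. The smallest adjusted p of a member was 0.271, for mt-Tn. All log2 changes (differences) below are BPA minus vehicle of log2(FPKM + 1), a scale that shrinks the change of low genes.

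Direction was shared by most members. A log2 change above 0 was found in 26 of 31 members and in 48% of all tested genes. In 12 members every BPA library lay above every vehicle library, and in 0 every BPA library lay below. Over all tested genes these shares were 3.23% and 4.66%. The 12 were the mRNAs mt-Co1, mt-Cytb, mt-Nd1, mt-Nd2, mt-Nd4, mt-Nd4l, mt-Nd5 and mt-Nd6 and the tRNA genes mt-Tw, mt-Tn, mt-Tc and mt-Tp. Without both replicates 4, the count of such mRNAs was again 8, where the share of all tested genes was 6.83%. The median log2 change was 0.54 over the 13 mRNAs, 0.79 over the 16 tRNAs tested and -0.01 over all tested genes.

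**Figure D2:**
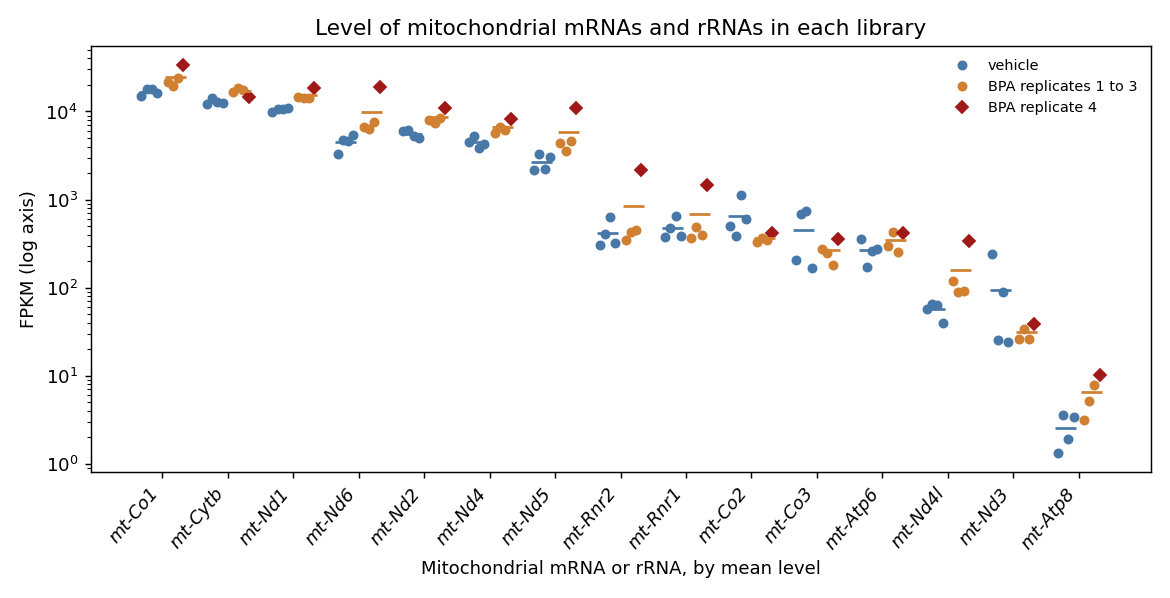
FPKM on a log axis (y) of the 13 mRNAs and 2 rRNAs, ordered by mean level (x), with 1 point per library, horizontal lines at the group means and BPA replicate 4 drawn as a diamond. From mt-Co1 to mt-Nd5 every BPA point lies above every vehicle point. In the rRNAs only BPA replicate 4 does, and mt-Co2, mt-Co3 and mt-Nd3 have their highest points in vehicle.

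Complex I, the NADH dehydrogenase that feeds electrons into the chain, has 7 subunits encoded in the mitochondrial genome. In 6 of the 7, all BPA libraries were above all vehicle libraries, and the median log2 change of the 7 was 0.62. The gene mt-Nd1, a membrane subunit next to the quinone site, was at 9865, 10734, 10542 and 11004 FPKM in vehicle replicates 1 to 4 and at 14780, 14166, 14267 and 18355 FPKM in BPA replicates 1 to 4. These libraries were among the tightest of all members, with a coefficient of variation of 4.61% in vehicle and 12.9% in BPA. The log2 change of mt-Nd1 was 0.54 (SE 0.144, limma adjusted p = 0.359).

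Its neighbour mt-Nd2, a proton-pumping membrane subunit, was at 5968, 6128, 5332 and 4996 FPKM in vehicle and at 7971, 7316, 8443 and 10958 FPKM in BPA (log2 difference 0.62, SE 0.167, limma adjusted p = 0.365). Another pumping subunit, mt-Nd4, was at 4444, 5211, 3891 and 4305 FPKM in vehicle and at 5689, 6614, 6165 and 8129 FPKM in BPA (log2 difference 0.57, SE 0.164, adjusted p = 0.365). The 3 genes kept their proportions. The ratio of mt-Nd2 to mt-Nd1, both in FPKM, was 0.454 to 0.605 in vehicle and 0.516 to 0.597 in BPA, and that of mt-Nd4 to mt-Nd1 was 0.369 to 0.485 and 0.385 to 0.467. Both ratios overlapped between the groups.

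The pumping subunit mt-Nd5 showed a larger difference with a larger spread. It was at 2178, 3279, 2230 and 3008 FPKM in vehicle and at 4330, 3599, 4680 and 11087 FPKM in BPA (log2 difference 1.02, SE 0.342, limma adjusted p = 0.387). BPA replicate 4 was 2.64 times the mean of the other BPA libraries. The gene mt-Nd6, the only mRNA encoded on the minus strand and another membrane subunit, was at 3255, 4699, 4653 and 5346 FPKM in vehicle and at 6656, 6367, 7590 and 19164 FPKM in BPA (log2 difference 1.004, SE 0.354, adjusted p = 0.392), with BPA replicate 4 at 2.79 times the others. The ratio of mt-Nd6 to mt-Nd5 was 1.43 to 2.09 in vehicle and 1.54 to 1.77 in BPA, so these overlapping genes kept their proportion in BPA replicate 4 as well. Without that library the log2 changes were 0.67 for mt-Nd5 and 0.63 for mt-Nd6. Whether reads were counted by strand is not given in the sources used here, and without strand, reads of the overlap and antisense RNA of either gene cannot be told apart.

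The 2 short complex I genes were low. The membrane subunit gene mt-Nd4l was at 56.4, 65.0, 64.2 and 40.1 FPKM in vehicle and at 118, 90.3, 91.0 and 335 FPKM in BPA (log2 difference 1.26, SE 0.402, limma adjusted p = 0.374). Without BPA replicate 4 the log2 change of mt-Nd4l was 0.83. The gene shares 7 bases with mt-Nd4, which stood far above it. The exception in complex I was mt-Nd3, which was at 239, 25.4, 88.8 and 24.0 FPKM in vehicle and at 26.2, 34.0, 26.3 and 38.6 FPKM in BPA. Its log2 change was -0.95 (SE 0.661, adjusted p = 0.582), and vehicle replicates 1 and 3 alone were above the BPA range. Without vehicle replicate 1 its log2 change was -0.29. Summed with those of a nuclear copy described below, its reads overlapped between the groups.

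Complex III passes electrons from quinol to cytochrome c, and mt-Cytb encodes its cytochrome b. Its levels were 12070, 14284, 12794 and 12643 FPKM in vehicle and 16819, 18631, 17497 and 14681 FPKM in BPA (log2 difference 0.38, SE 0.143, limma adjusted p = 0.408). In this gene BPA replicate 4 was the lowest of the BPA libraries, at 0.832 times the mean of the others, whereas it was the highest in mt-Nd1, mt-Nd2, mt-Nd4, mt-Nd5, mt-Nd6 and mt-Co1. The ratio of mt-Nd5 to mt-Cytb was 0.174 to 0.238 in vehicle, 0.193 to 0.267 in BPA replicates 1 to 3 and 0.755 in BPA replicate 4. With quantile normalization the log2 change of mt-Cytb turned to -0.14.

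Complex IV, cytochrome c oxidase, reduces oxygen. The gene mt-Co1, of its catalytic subunit, ranked 2 of all genes by mean FPKM. It was at 15184, 18127, 18020 and 16093 FPKM in vehicle and at 21463, 19715, 23867 and 33450 FPKM in BPA (log2 difference 0.52, SE 0.192, limma adjusted p = 0.408). The other 2 mRNAs of the complex were far lower than mt-Co1 and pointed the other way. The copper-binding subunit gene mt-Co2 was at 501, 389, 1130 and 597 FPKM in vehicle and at 333, 369, 347 and 415 FPKM in BPA (log2 difference -0.72, SE 0.295, unadjusted p = 0.0373, adjusted p = 0.432). The ranges of mt-Co2 overlapped, since BPA replicate 4 was above vehicle replicate 2, and without vehicle replicate 3 the log2 change was -0.42. The third subunit gene, mt-Co3, was at 205, 677, 747 and 166 FPKM in vehicle and at 275, 247, 181 and 356 FPKM in BPA (log2 difference -0.49, SE 0.506, adjusted p = 0.700). Vehicle replicates 2 and 3 lay above every BPA library, while vehicle replicate 1 was inside the BPA range and vehicle replicate 4 just below it. Leaving out single libraries moved its log2 change from -0.87 (without vehicle replicate 4) to -0.15 (without vehicle replicate 3), with -0.77 without vehicle replicate 1, -0.19 without vehicle replicate 2 and -0.33 without BPA replicate 3.

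Complex V makes ATP, and its proton channel subunit is encoded by mt-Atp6. That gene was at 360, 174, 257 and 271 FPKM in vehicle and at 293, 430, 252 and 412 FPKM in BPA, with overlap (log2 difference 0.39, SE 0.255, limma adjusted p = 0.555). Without vehicle replicate 2, the lowest, its log2 change was 0.21. Upstream of it and overlapping it by 43 bases, mt-Atp8, of a small stator subunit, had 125 reads over all 8 libraries. Levels of mt-Atp8 were 1.34, 3.57, 1.90 and 3.39 FPKM in vehicle and 3.11, 5.23, 7.83 and 10.1 FPKM in BPA (log2 difference 1.05, SE 0.333, adjusted p = 0.374), and BPA replicate 1 lay inside the vehicle range.

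The mRNAs of low level lie together in the genome, in a stretch that is largely copied in the nucleus. Along chromosome 1 of GRCm38, 7 annotated unprocessed pseudogenes follow each other on the minus strand in the order of the mitochondrial genes, from chr1:24611535-24616188, which corresponds to MT:6390-11042, 4653 bases. Aligned with blastn, Gm28661 matched mt-Co2 over 681 bases with 100% identity, Gm10925 matched mt-Atp6 over 678 bases with 100%, Gm28437 matched mt-Co3 over 783 bases with 100%, and Gm10222 matched mt-Nd4l over 294 bases with 100%. Gm28438 matched mt-Nd3 at 99.7%, Gm28439 the first 876 bases of mt-Nd4 at 100%, and Gm29216 the last 483 bases of mt-Co1 at 99.8%. Of mt-Atp8, only the last 43 of 204 bases matched an annotated copy (Gm10925). It is counted as inside the stretch by its position, since the chromosome 1 bases between the pseudogenes were not read. A read from a matching part matches both places, and how the authors assigned reads with several matches is not given in the sources used here. Levels of these members are therefore uncertain.

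Members were split by that stretch after their values had been seen, so the counts that follow are a description. The 6 mRNAs wholly inside it (mt-Co2, mt-Atp8, mt-Atp6, mt-Co3, mt-Nd3 and mt-Nd4l) had 3 log2 changes above 0 and 3 below, with a median of -0.05. The 7 mRNAs outside it or partly in it (mt-Nd1, mt-Nd2, mt-Co1, mt-Nd4, mt-Nd5, mt-Nd6 and mt-Cytb) all had every BPA library above every vehicle library, with log2 changes of 0.38 to 1.02 and a median of 0.57. Relative to the vehicle mean, the median of these 7 was -0.10, 0.13, -0.01 and -0.03 in vehicle replicates 1 to 4 and 0.49, 0.45, 0.51 and 0.97 in BPA replicates 1 to 4 on the log2 scale. Within replicates 1 and 2 alone the median change of the 7 was 0.43, and within replicates 3 and 4 alone it was 0.79. Without BPA replicate 4 it was 0.47.

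**Figure D3:**
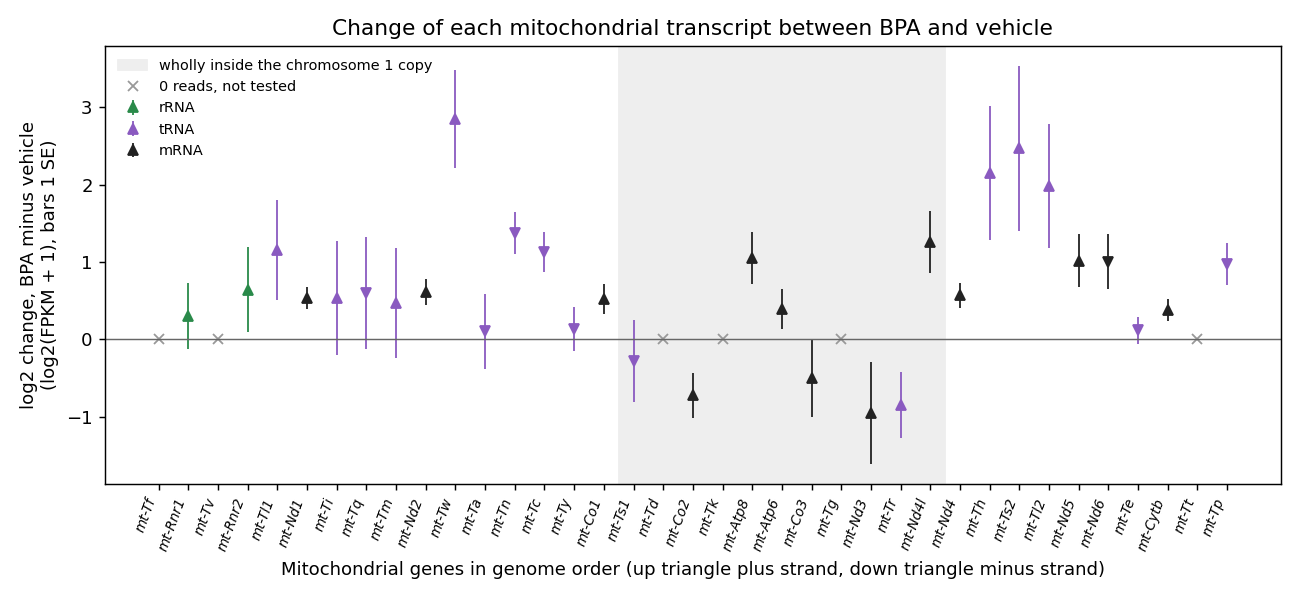
Log2 change between BPA and vehicle on the log2(FPKM + 1) scale (y) of each mitochondrial gene in genome order (x), with bars of 1 SE, colours for mRNA, rRNA and tRNA, triangles pointing up for the plus and down for the minus strand, and crosses for the 6 tRNA genes with 0 reads. Negative values are found only inside the shaded stretch copied on chromosome 1. The mRNAs outside it lie between 0.38 and 1.02.

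The copies themselves were counted as genes of their own. All 7 had a log2 change above 0, with a median of 0.64, and in 4 of them (Gm10925, Gm28438, Gm28439 and Gm10222) every BPA library was above every vehicle library, as in 3.23% of all tested genes. None passed limma's test (smallest adjusted p = 0.307), and the same 4 were higher at an unadjusted p under 0.05, as were 4.18% of all tested genes. For the pair mt-Co2 and Gm28661, the mitochondrial gene took 69.4%, 60.4%, 70.3% and 65.7% of the reads of the pair in vehicle and 52.5%, 51.9%, 53.7% and 54.3% in BPA, with Wilson intervals of at most 1.15 percentage points to either side. The 2 groups did not overlap in this share. For mt-Nd3 and Gm28438 the share was 86.8%, 29.0%, 57.1% and 28.8% in vehicle and 12.1%, 28.1%, 19.4% and 15.9% in BPA (at most 3.95 points to either side). In all other pairs the shares overlapped between the groups. They were 50.8 to 74.6% in vehicle and 53.9 to 67.7% in BPA for mt-Atp6, and 63.8 to 82.8% and 60.7 to 66.1% for mt-Co3. For mt-Nd4l they were 58.3 to 66.6% and 55.1 to 76.3%, and those of mt-Co1 and mt-Nd4 overlapped too. While mt-Nd3 was lower on average in BPA, Gm28438 was higher, with 56.6 ± 13.6 FPKM in the vehicle group and 149 ± 58.8 in the BPA group (log2 difference 1.33, limma adjusted p = 0.321). The summed reads of mt-Nd3 and Gm28438 were 1753, 544, 837 and 503 in vehicle and 1305, 711, 768 and 1399 in BPA. Those of mt-Co2 and Gm28661 were 9052, 7872, 17008 and 10794 in vehicle and 7527, 8228, 7204 and 8629 in BPA. The sums of each of these 2 pairs overlapped between the groups, as did those for mt-Atp6 and mt-Co3. Those of mt-Nd4l and Gm10222 did not, at 461, 571, 464 and 355 in vehicle and 1108, 715, 720 and 2156 in BPA. Nor did the sums for mt-Co1 and mt-Nd4, which were higher in every BPA library.

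**Figure D4:**
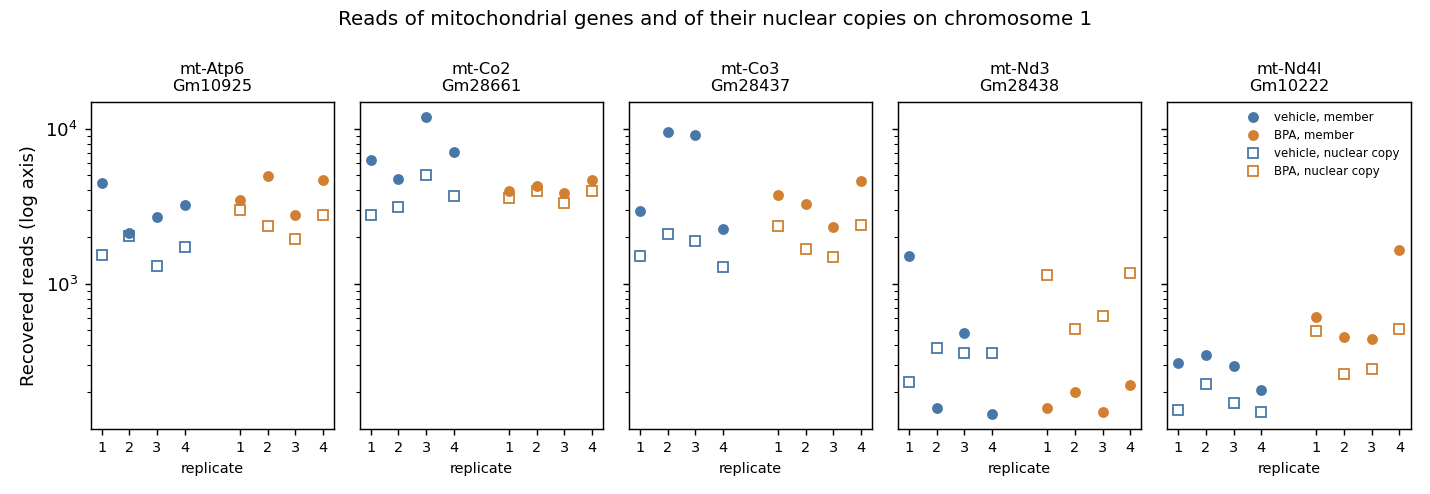
Recovered reads on a log axis (y) of 5 mitochondrial genes (filled circles) and of their nuclear copies on chromosome 1 (open squares) in each replicate (x), vehicle at the left and BPA at the right of each panel. In the mt-Nd3 panel the copy lies above the gene in every BPA library and in vehicle replicates 2 and 4, and in the mt-Co2 panel gene and copy nearly coincide in BPA.

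Other nuclear copies were less alike. On chromosome 2, Gm13340 matched mt-Co1 over its whole 1545 bases at 97.6%, Gm13341 matched mt-Co2 at 95.9% and Gm13339 matched the end of mt-Nd2 at 96.7%. Their levels were 13.1 ± 4.87 and 14.6 ± 7.46 FPKM for Gm13340, 5.61 ± 1.42 and 8.80 ± 1.61 FPKM for Gm13341, and 5.20 ± 0.898 and 8.001 ± 4.52 FPKM for Gm13339, in vehicle and BPA. These are small beside mt-Co1 and mt-Nd2. The genes mt-Nd1 and both rRNA genes had no annotated copy in the transcripts searched.

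The rRNAs of the small (mt-Rnr1) and large (mt-Rnr2) mitochondrial ribosomal subunits differed in 1 library. Levels of mt-Rnr1 were 378, 471, 655 and 387 FPKM in vehicle and 367, 488, 396 and 1473 FPKM in BPA (log2 difference 0.30, SE 0.426, limma adjusted p = 0.786). Levels of mt-Rnr2 were 303, 403, 628 and 318 FPKM in vehicle and 348, 434, 451 and 2145 FPKM in BPA (log2 difference 0.64, SE 0.546, adjusted p = 0.645). BPA replicates 1 to 3 lay inside the vehicle range for mt-Rnr2 and inside or just below it for mt-Rnr1. BPA replicate 4 was 3.53 and 5.22 times the mean of the other BPA libraries. Without it, the log2 change of mt-Rnr1 was -0.15 and that of mt-Rnr2 0.047, and without both replicates 4 that of mt-Rnr2 was -0.06. The RNA was chosen by poly(A) tails, so these values describe rRNA that entered such a library and not the rRNA of the tissue.

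The tRNA genes are 59 to 75 bases long, shorter than the 370 to 420 bp library fragments named in the labels. Reads at them can thus belong to longer RNAs, and mature tRNAs and precursors cannot be told apart. Reads were found at 16 of the 22. The other 6 (mt-Tf, mt-Tv, mt-Td, mt-Tk, mt-Tg and mt-Tt) had 0 reads in all 8 libraries. Counting error alone allows up to 3 reads there, or 2.23e-06% of the 134528208 reads. By position, mt-Td, mt-Tk, mt-Tg, mt-Ts1 and mt-Tr lie inside the stretch copied on chromosome 1. How reads shared with a copy or a neighbouring gene were assigned is not given. The limit thus holds for assigned reads and not for the level of the RNA. Another 6 (mt-Ti, mt-Tm, mt-Tq, mt-Ts1, mt-Tr and mt-Ta) had under 50 reads over the 8 libraries, 5 to 27 in all, with adjusted p of 0.484 to 0.942. The 5 reads of mt-Tr were all in vehicle. The other 10 are described singly below.

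Levels of tRNA genes differed by orders of magnitude within a cluster. Between mt-Nd2 and mt-Co1 lie 5 tRNA genes, 4 of them on the minus strand. From there, mt-Tn was at 58.4, 52.8, 91.9 and 75.4 FPKM in vehicle and at 136, 126, 253 and 229 FPKM in BPA (log2 difference 1.37, SE 0.272, limma adjusted p = 0.271). Across the replication origin, mt-Tc was at 135, 159, 191 and 149 FPKM in vehicle and at 287, 223, 427 and 520 FPKM in BPA (log2 difference 1.13, SE 0.261, adjusted p = 0.317). For both, BPA replicate 4 was not far from BPA replicate 3. Adjoining mt-Tc at a distance of 2 bases, mt-Ty was at 40.7, 32.6, 36.6 and 19.8 FPKM in vehicle and at 31.8, 23.9, 54.1 and 34.3 FPKM in BPA, with overlap (log2 difference 0.13, adjusted p = 0.863). On the far side of mt-Tn, mt-Ta (alanine) had 5 reads in all.

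The first gene of the cluster, mt-Tw, shares 2 bases with the end of mt-Nd2. It was at 0, 0.835, 4.82 and 1.72 FPKM in vehicle and at 14.6, 5.30, 20.2 and 37.03 FPKM in BPA, and these values rest on 94 reads in all (log2 difference 2.85, SE 0.633, limma adjusted p = 0.306). Its log2 change was the highest of all 13376 tested genes. Measured against mt-Co1, the next mRNA, mt-Tn was at 0.00291 to 0.00510 of its FPKM in vehicle and at 0.00635 to 0.0106 in BPA, and mt-Tc at 0.00875 to 0.0106 and 0.0113 to 0.0179. Both ratios were apart between the groups, for 2 genes whose FPKM was apart already. All other ratios of FPKM taken between members overlapped. That of mt-Tp to mt-Cytb, for example, was 0.0751 to 0.109 in vehicle and 0.101 to 0.280 in BPA. Ratios do not depend on scaling between libraries, and without strand, reads of the opposite strand in this stretch cannot be told apart.

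On the minus strand near the other end of the genome, mt-Tp and mt-Te differed from each other in the same way. The highest tRNA gene by far was mt-Tp, at 906, 1261, 1292 and 1383 FPKM in vehicle and at 1905, 1880, 2109 and 4108 FPKM in BPA (log2 difference 0.98, SE 0.271, limma adjusted p = 0.365). BPA replicate 4 was 2.09 times the mean of the other BPA libraries. By contrast mt-Te, which adjoins the start of mt-Nd6 with no base between, was at 214, 285, 294 and 237 FPKM in vehicle and at 336, 216, 283 and 287 FPKM in BPA (log2 difference 0.12, SE 0.172, adjusted p = 0.794). The BPA and vehicle ranges of mt-Te overlapped almost fully. The 8 minus-strand tRNA genes together took 0.137 to 0.177% of mitochondrial reads in vehicle and 0.177 to 0.241% in BPA, just without overlap.

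The 3 plus-strand tRNA genes between mt-Nd4 and mt-Nd5 varied widely. Levels of mt-Th (histidine) were 0.815, 6.68, 19.3 and 12.03 FPKM in vehicle and 43.9, 21.2, 11 and 120 FPKM in BPA (log2 difference 2.15, SE 0.865, limma adjusted p = 0.430). Levels of mt-Ts2 (serine) were 0, 18.0, 35.0 and 20.5 FPKM in vehicle and 56.7, 27.1, 51.0 and 164 FPKM in BPA (log2 difference 2.47, SE 1.07, adjusted p = 0.450). Levels of mt-Tl2 (leucine) were 3.08, 10.2, 41.0 and 16.2 FPKM in vehicle and 146, 15.0, 50.2 and 65.6 FPKM in BPA (log2 difference 1.98, SE 0.800, adjusted p = 0.432). Without vehicle replicate 1, which had 0 reads of it, the log2 change of mt-Ts2 was 1.32. In all 3 the groups overlapped, with vehicle replicate 3 the highest and vehicle replicate 1 the lowest of its group. The other leucine tRNA gene, mt-Tl1, which lies between mt-Rnr2 and mt-Nd1, was at 9.46, 10.4, 21.5 and 13.1 FPKM in vehicle and at 33.8, 6.32, 48.3 and 73.4 FPKM in BPA (log2 difference 1.16, SE 0.643, adjusted p = 0.511), also with overlap. Its log2 change was 0.74 without BPA replicate 4 and 1.85 without BPA replicate 2.

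**Figure D5:**
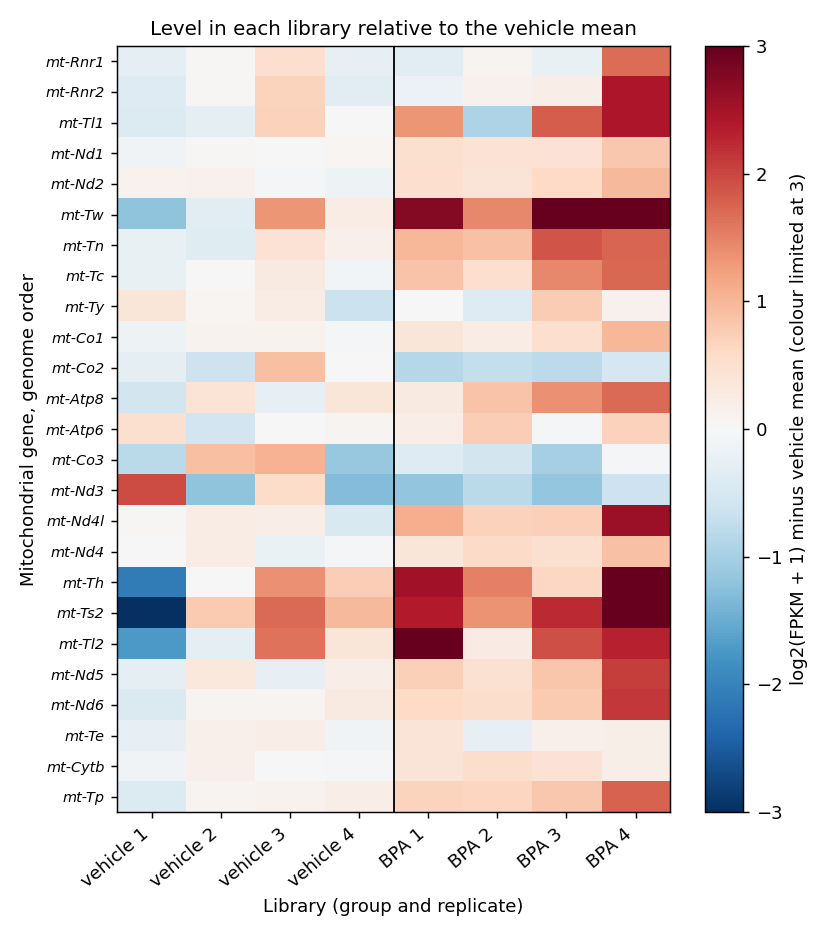
Deviation of each library (columns) from the vehicle mean on the log2(FPKM + 1) scale, shown as colour from blue (lower) to red (higher) and limited at 3, for the 25 members with at least 50 reads in genome order (rows). The BPA columns are red in most rows, most deeply in BPA replicate 4, while mt-Co2, mt-Co3 and mt-Nd3 are below the vehicle mean in all 4 BPA libraries (mt-Co3 by only 0.03 in BPA replicate 4) and mt-Ty and mt-Te stay pale.

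Base composition moved with the groups. The mitochondrial mRNAs hold 31.9 to 41.1% G and C, and the median of tested nuclear protein-coding genes was 49.8%. Across tested nuclear genes, which are not independent, the Spearman correlation of the log2 change with GC content was -0.401. The 646 nuclear protein-coding genes with under 40% GC had a median log2 change of 0.14, against 0.54 for the 13 mRNAs. After a correction for GC in each library, fitted over nuclear genes and applied to the members too, the median of the 13 mRNAs was 0.41. With it, 6 mRNAs were above every vehicle library in all BPA libraries, as were 2.26% of all tested genes. No member passed under that correction (smallest adjusted p = 0.593).

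The nuclear genes that make, cut and read mitochondrial RNA were compared as lists. In none of them did a member pass limma's test, and their medians were near that of all genes. At an unadjusted p under 0.05 there were 2 higher and 1 lower in transcription and maintenance, 2 and 2 in RNA processing, 0 and 1 among the synthetases and 2 and 1 among the regulators. Over all tested genes 4.18% were higher and 6.83% lower at that level. Transcription and maintenance of the genome had 11 members higher and 12 lower of 23 tested, with a median log2 change of -0.02. Its polymerase Polrmt averaged 9.27 ± 0.657 FPKM in the vehicle group and 8.09 ± 0.863 in the BPA group (log2 difference -0.18, limma adjusted p = 0.516), and Tfam, which packs and activates the genome, at 14.7 ± 2.21 and 14.8 ± 1.40 FPKM (log2 difference 0.01). The 4 members with the smallest p were Mterf2, a factor of the termination factor family (log2 difference 0.50), the nuclease Endog (-0.46), the pyrimidine nucleotide carrier Slc25a36 (0.34) and Rnaseh1, which removes RNA from DNA hybrids (-0.31), with adjusted p of 0.365 to 0.462.

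RNA processing, stability and decay had 23 higher and 14 lower of 37 tested, with a median of 0.04. Lrpprc, which holds mitochondrial mRNAs stable and tailed, was at 21.3 ± 2.15 and 23.6 ± 5.08 FPKM (log2 difference 0.12, limma adjusted p = 0.773), while its partner Slirp was too low to test. The 4 members with the smallest p were Ptcd1 (-0.32), Fastk (-0.32), Fastkd1 (0.25) and Nsun3, a methyltransferase of the methionine tRNA (0.31), with adjusted p of 0.391 to 0.429. Mitochondrial aminoacyl-tRNA synthetases and the formyltransferase Mtfmt had 13 higher and 10 lower of 23, with a median of 0.06. There the smallest p belonged to the glutamyl-tRNA synthetase Ears2 (-0.39, adjusted p = 0.408), followed by Vars2 (-0.24), Fars2 (-0.25) and Mtfmt (-0.19).

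Regulators of mitochondrial biogenesis had 6 higher and 7 lower of 13, with a median of -0.03. The coactivator gene Ppargc1a was at 7.12, 8.03, 6.67 and 5.39 FPKM in vehicle and at 8.04, 8.97, 9.56 and 11.4 FPKM in BPA (log2 difference 0.43, SE 0.140, limma adjusted p = 0.374). Every BPA library was above every vehicle library, with BPA replicate 1 and vehicle replicate 2 almost level. Of the others, Esrrg, an estrogen-related receptor, had a log2 change of 0.33, its relative Esrra of -0.38, and the coactivator Pprc1 of -0.20 (adjusted p of 0.429 to 0.478).

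Nuclear-encoded subunits of the same complexes had log2 changes below 0 for the most part. Of those tested, 33 of 36 in complex I, 3 of 4 in complex II, 8 of 9 in complex III, 12 of 13 in complex IV and 14 of 16 in complex V were lower, with medians of -0.31, -0.12, -0.32, -0.31 and -0.17. Over all tested genes 48% had a log2 change above 0. None of the subunits passed limma's test, and 5 of complex I and 1 of complex V were lower at an unadjusted p under 0.05, where 6.83% of all tested genes were. The members with the smallest p were Ndufa2 (-0.78, adjusted p = 0.355), Sdhb (-0.15), Uqcrc1 (-0.27), Cox6a1 (-0.55) and Atp5e (-1.06, adjusted p = 0.408). BPA replicate 4 had the lowest summed level in each complex, and without it the medians were -0.15, 0.02, -0.15, -0.05 and -0.02. Within replicates 1 and 2 alone they were 0.03, 0.05, -0.06, 0.16 and 0.06, and within replicates 3 and 4 alone -0.62, -0.29, -0.69, -0.68 and -0.53. All 13 mitochondrial mRNAs had medians of 0.43 and 0.73 there. The 7 outside or partly in the chromosome 1 copy, split off after their values had been seen, had medians of 0.43 and 0.79. The 6 wholly inside it had medians of 0.09 and -0.09. The difference between nuclear and mitochondrial subunits was not tested.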

How the data were processed

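The deposited table holds FPKM for 54532 genes in 8 libraries, made by the authors from their reads. DESeq2 1.20.0 and GRCm38 are named in the submitters' processing notes, and the aligner, the counting, its strandedness and the handling of reads with several matches were not given in the sources used here. BPA columns carry the labels' names, and the other columns, C and a number, stand for the vehicle libraries here, since vehicle is the only other label.

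Multiplied by gene length, 100% of low values (up to 20 steps) were whole reads to within 0.01, so reads were recovered. The authors' library size was the mean total times a median-ratio size factor (ratio 0.999609), so FPKM compares genes per length and libraries by median ratio. A value at few reads carries more counting error.

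limma 3.58.1 in R 4.3.3 (trended, robust variance, no covariate) tested log2(FPKM + 1). On simulated data of 13376 genes it called 61.2% of genes changed 2-fold and 95.1% of those changed 4-fold. Sequences came from GENCODE M21, where 37 of 37 members had the same coordinates, and were aligned with blastn 2.17.0. Tables and plots used pandas 2.3.3, numpy 2.4.6 and matplotlib 3.10.9 under Python 3.11.15. No libraries of a group were duplicates (chi-square per gene 15.5 to 100.2).

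Every member is described. Of the nuclear lists, up to 4 members with the smallest p (1 per respiratory complex) and Polrmt, Tfam, Lrpprc, Slirp and Ppargc1a were named, with copies of at least 1 FPKM. The members and lists were chosen with earlier results of these data known. Alternatives were other pseudocounts, filters, scalings and variance models, library weights, limma-voom on recovered reads, a replicate block and leaving out libraries. The GC correction, the values within replicates 1 and 2 or 3 and 4, the 7-mRNA group and the count of mRNAs above every vehicle library were chosen after seeing the data.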

Additional observations from a re-analysis of the deposited data

Results flagged for a closer look

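In each group of 4 libraries, the highest or lowest value was compared with the others by Dixon's 95% criterion. The groups share libraries and are not independent, so the chance rate of about 1 in 20 does not apply to their count. Of 64 groups, 12 stood out. Most were BPA replicate 4, the library with the fewest genes above 0: it was the high value for mt-Nd1 (18350 FPKM), mt-Nd4l (335.4 FPKM), mt-Nd5 (11090 FPKM), mt-Nd6 (19160 FPKM), mt-Rnr1 (1473 FPKM), mt-Rnr2 (2145 FPKM), mt-Tp (4108 FPKM) and the mitochondrial share of reads (14.16%). Vehicle replicate 2 stood out for its share of 8.329%. The remaining values rest on 5 and 7 reads in all: mt-Ta at 1.622 FPKM in vehicle replicate 2 and at 2.506 FPKM in BPA replicate 1, and mt-Ts1 at 2.575 FPKM in BPA replicate 2. In these the other libraries of the group were at 0, where any value above 0 meets the criterion.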

How the results depend on the processing

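No member was called under any of the 21 settings with a test (smallest adjusted p of a member 0.134 to 0.593). Of 31 tested members, 21 kept their direction in every setting that gave them a value (23, or 22 for mt-Atp8 and mt-Ti, which a filter at 5 FPKM removed). The other 10 include mt-Tr, which never turned but was at 0 within replicates 1 and 2, where it had no reads. Genes called over the whole table numbered 1 in the main comparison, 0 by limma-voom on recovered reads (1529 at an unadjusted p under 0.05), 8 with library weights and 0 to 4 when each library was left out, the 0 being those that omitted replicate 1 or 3 of vehicle or replicate 2 of BPA. The correlations of same-numbered deviations were 0.137, 0.019, 0.138 and -0.0329, and the own number was the best partner for numbers 1 and 3 only. Structure shared by number is not excluded by this. In each group replicates 1 and 2 were the most alike (chi-square per gene 20.9 in vehicle and 15.5 in BPA). Endothelial and stromal markers summed to 35.5, 37.6, 13.5 and 16.9 FPKM in vehicle replicates 1 to 4 and to 41.3, 45.3, 21.8 and 28.2 FPKM in BPA. Podocyte markers were higher in replicates 1 and 2 in vehicle only. Limma with a replicate block called 0 genes (1376 at an unadjusted p under 0.05). Genes higher and lower at that level numbered 559 and 914, 735 and 779 with quantile normalization, 407 and 1116 after rescaling to a common total, and 419 and 1110 by limma-voom.

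Quantile normalization gives the highest genes of every library the same values, and 7 of the mRNAs rank among the 10 highest genes. Under it the mRNAs above every vehicle library in all BPA libraries numbered 1 in place of 8, where the share of all tested genes was 4.10%. The median was then 0.13 for the 13 mRNAs and 0.13 for the 7 outside or partly in the chromosome 1 copy. Within replicates 3 and 4 these medians were 0.73 and 0.79. With each library left out in turn they ran from 0.45 to 0.58 and from 0.47 to 0.65.

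Directions that turned were those of mt-Cytb with quantile normalization (-0.14), mt-Rnr2 without both replicates 4 (-0.057) and mt-Rnr1 with library weights (-0.054) and without both replicates 4 (-0.24), and mt-Rnr1 was at -0.15 without replicate 4 of BPA, the lowest, and at 0.51 without replicate 1, the highest. The tRNA genes that turned were near 0 or under 50 reads. For mt-Ty the log2 change was -0.036 with library weights, -0.077 without both replicates 4, -0.016 after GC correction and -0.39 within replicates 1 and 2, and it ran from -0.079 without vehicle replicate 4 (-0.078 without BPA replicate 3) to 0.305 without BPA replicate 2. For mt-Te it was -0.030 and for mt-Ta -0.048 after GC correction, and mt-Ta ran down to -0.35 without BPA replicate 1 and -0.011 without vehicle replicate 1, 3 or 4. Without both replicates 4, mt-Tm was at -0.18, mt-Tq at -0.037 and mt-Ts1 at 0.11, and within replicates 1 and 2 mt-Tm was at -0.0075 and mt-Ts1 at 0.92. The cause was not tested. Depth limits the tRNA genes under 50 reads, mt-Tw and mt-Atp8.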
